A study of Mus musculus with 24 samples.

Results

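The gene set examined covers glycerolipid synthesis and glyceroneogenesis, the route by which fat cells build triglyceride. Its 10 members, Gpam, Gpat3, Agpat2, Agpat3, Lpin1, Dgat1, Dgat2, Gpd1, Pck1 and Pnpla3, were chosen by name, as rows of the authors' deposited normalized table, out of 16821 genes. This choice was made with earlier results of these data known. The members were described in the inguinal fat (IWAT), a white, subcutaneous depot, of 24 male C57BL6/J mice that were 4 months old, 6 mice on each of 4 diets. The diets were elemental MR (methionine restriction with elemental amino acids as protein source, 0.17% methionine), elemental control (the same source, 0.86% methionine), oxidized casein MR (casein oxidized so that its methionine was lost, then supplemented to the level of elemental MR, 0.17% methionine) and casein control (casein that was not oxidized, 0.86% methionine). All mice started their diet at 5 weeks of age, ate it for 12 weeks and were killed after a fast of 4 h, so the levels are those of fasted animals. Intact casein was compared with oxidized casein, so methionine level and casein oxidation cannot be told apart in the casein comparison. The series design text speaks of liver, whereas the title, the source and the protocol name IWAT.

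Triglyceride is assembled on glycerol 3-phosphate. Acyltransferases of the GPAT and AGPAT families add the first fatty acids to give phosphatidate, lipin phosphatases remove the phosphate to give diacylglycerol, and the DGAT enzymes add the last fatty acid. Adipocytes draw glycerol 3-phosphate from glycolysis or, in the fasted state, from pyruvate through phosphoenolpyruvate carboxykinase (glyceroneogenesis), and glycerol-3-phosphate dehydrogenase makes it in both routes.

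The libraries were QuantSeq libraries, which read the 3′ end of each transcript, with totals from 7468336 to 19868913 reads. Levels are CPM, counts normalized to library size, after scaling of the totals by the trimmed mean of M-values (TMM), and a 3′ count does not grow with transcript length. Transcripts of the lymph node embedded in this pad differed between libraries. The mean log2 CPM of 10 B cell markers lay between 4.94 and 6.65 in 15 libraries and between -0.06 and 2.94 in the other 9, and the libraries with lymph node transcripts were 5 of 6 in elemental MR, 4 of 6 in elemental controls, 2 of 6 in oxidized casein MR and 4 of 6 in casein controls. None of the 12 adipocyte markers was at 0 in every library, and their summed level was 29877 to 45763 CPM in elemental MR, 28142 to 41824 CPM in elemental controls, 33109 to 65568 CPM in oxidized casein MR and 21618 to 48523 CPM in casein controls. Muscle or liver transcripts stood out in 3 libraries, with Acta1 at 1239 CPM in elemental MR 2 and 2946 CPM in elemental control 2, and Alb at 5610 CPM in elemental control 6. In bulk tissue, fewer cells of a type and less RNA per cell cannot be told apart.

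All 10 members passed the filter on low counts, and their levels differed widely. By mean log2 CPM over the 24 libraries, Pck1 ranked 22nd, Gpd1 35th, Agpat2 80th and Dgat2 105th of 15176 genes. Lpin1, Dgat1, Agpat3, Pnpla3 and Gpat3 followed between rank 321 and rank 3421. Gpam, the mitochondrial GPAT, stood apart at rank 10939 with 14 to 116 reads in a library, so its values carry the most counting error. A 3′ count depends on reads being assigned to the annotated end of a gene. The counting program is not given, so levels compared between genes are uncertain. The widest range between libraries belonged to Gpd1, whose highest CPM was 10.9 times its lowest. The narrowest belonged to Agpat3, at 3.18 times.

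In the GRCm38 build, with the GENCODE M21 annotation, Agpat2 occupies chr2:26593057-26604417 on the minus strand, and its 3′ end overlaps that of Egfl7, a gene of endothelial cells on the plus strand that ends at 26593120. The strand setting of the authors' counting is not given in the sources used here, so reads of this overlap may be shared or dropped. Egfl7 received 27666 reads in all against 254251 for Agpat2, and its log2 fold change with MR was -0.13 on elemental amino acids and -0.10 on casein (edgeR adjusted p = 0.891 and 0.763). Gpat3 (chr5:100845713-100899102, plus strand) overlaps the antisense gene 4930458D05Rik at its 5′ end. The plus-strand gene Gm20532 spans the whole of Agpat2, and Gm49513, on the same strand as Pnpla3, starts at chr15:84181914 and runs over the 3′ end of Pnpla3, so reads there may also be shared or dropped. Gpd1 (chr15:99717515-99725005) and Pck1 (chr2:173153048-173159273) lie on the plus strand, and Gpam (chr19:55067268-55127238) and Agpat3 (chr10:78269178-78352489) on the minus strand. The antisense gene Gm16537 overlaps Gpd1, and the antisense gene AC110206.1 overlaps Gpam. Agpat3 is overlapped by Gm47992, n-R5s77, Mir7659 and Gm40709. None of these is among the counted genes, and the same caution holds for reads there.

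RefSeq promoters of the GRCm38.p6 assembly, from 250 bases before to 50 bases after the annotated start, were matched by symbol for 7 of the 10 members. Dgat1, Dgat2 and Gpd1 were not matched. Those of the 4 matched members that rose with MR on casein are shown with that of Pnpla3, which did not pass the test, each 5′ to 3′ on the strand of the gene.
Pck1 chr2:173152823-173153122 (plus strand): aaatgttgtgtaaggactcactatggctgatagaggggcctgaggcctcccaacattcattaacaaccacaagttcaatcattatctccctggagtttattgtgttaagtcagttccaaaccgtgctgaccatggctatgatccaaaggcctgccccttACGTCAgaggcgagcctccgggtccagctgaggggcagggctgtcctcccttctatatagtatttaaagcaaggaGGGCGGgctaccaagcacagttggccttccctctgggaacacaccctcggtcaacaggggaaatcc
Gpam, upstream start chr19:55127189-55127488 (minus strand): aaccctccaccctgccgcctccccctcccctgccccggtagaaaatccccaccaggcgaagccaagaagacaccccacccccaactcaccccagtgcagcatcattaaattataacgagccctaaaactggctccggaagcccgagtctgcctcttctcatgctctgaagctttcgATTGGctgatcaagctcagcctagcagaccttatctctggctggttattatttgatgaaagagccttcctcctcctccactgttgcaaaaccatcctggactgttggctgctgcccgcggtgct
Gpam, downstream start chr19:55099428-55099727 (minus strand): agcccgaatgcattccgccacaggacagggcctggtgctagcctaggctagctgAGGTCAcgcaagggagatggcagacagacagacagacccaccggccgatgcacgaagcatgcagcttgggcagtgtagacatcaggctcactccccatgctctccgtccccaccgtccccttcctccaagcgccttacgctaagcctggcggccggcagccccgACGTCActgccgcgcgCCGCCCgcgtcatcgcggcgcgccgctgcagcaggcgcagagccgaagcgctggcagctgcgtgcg
Agpat2 chr2:26604368-26604667 (minus strand): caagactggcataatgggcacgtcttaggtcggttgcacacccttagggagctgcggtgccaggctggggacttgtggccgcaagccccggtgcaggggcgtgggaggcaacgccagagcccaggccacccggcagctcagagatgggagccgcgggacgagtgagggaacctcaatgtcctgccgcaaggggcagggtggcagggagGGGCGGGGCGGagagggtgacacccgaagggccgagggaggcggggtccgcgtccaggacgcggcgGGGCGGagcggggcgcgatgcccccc
Agpat3 chr10:78351651-78351950 (minus strand): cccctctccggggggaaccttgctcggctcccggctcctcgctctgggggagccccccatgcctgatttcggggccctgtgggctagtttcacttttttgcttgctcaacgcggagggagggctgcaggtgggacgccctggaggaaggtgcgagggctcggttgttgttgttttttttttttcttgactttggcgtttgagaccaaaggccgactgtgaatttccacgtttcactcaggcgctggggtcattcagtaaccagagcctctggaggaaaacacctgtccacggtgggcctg
Pnpla3 chr15:84167566-84167865 (plus strand): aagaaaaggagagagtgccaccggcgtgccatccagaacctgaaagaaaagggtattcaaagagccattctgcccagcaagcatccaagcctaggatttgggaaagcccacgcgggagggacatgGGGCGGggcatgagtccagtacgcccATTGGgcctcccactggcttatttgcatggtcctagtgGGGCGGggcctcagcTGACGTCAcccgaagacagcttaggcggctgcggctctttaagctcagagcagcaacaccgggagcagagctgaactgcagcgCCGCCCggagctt
Capitals mark every match on either strand to one of 8 motifs. Of all 32851 promoters in the table, 1.79% hold TGACGTCA, the cAMP response element (CRE). Its shorter form ACGTCA, which lies inside the full element, is held by 7.51%. The CCAAT box is held by 37.4%, and AGGTCA, a nuclear receptor half-site, by 16.3%. GGGCGG, a GC box, is held by 35.7%. CACGTG, an E-box, is held by 7.15%, the TATA motif TATAAA by 13.6% and the sterol response motif TCACNCCAC by 1.24%. The Pck1 window holds ACGTCA at -91 and a GC box at -16, counted from the annotated start. The downstream Gpam window holds ACGTCA at -32, as well as AGGTCA at -196 and a GC box at -16, and the upstream one holds a single reversed CCAAT at -74. Agpat2 has 3 GC boxes, of which the first and second overlap by a base, and Agpat3 has none of the motifs. Of the windows shown, only that of Pnpla3 holds the full CRE, at -46, beside a reversed CCAAT at -99 and GC boxes at -125, -61 and 38. These matches describe the letters of the windows and no binding was measured.

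**Figure D1:**
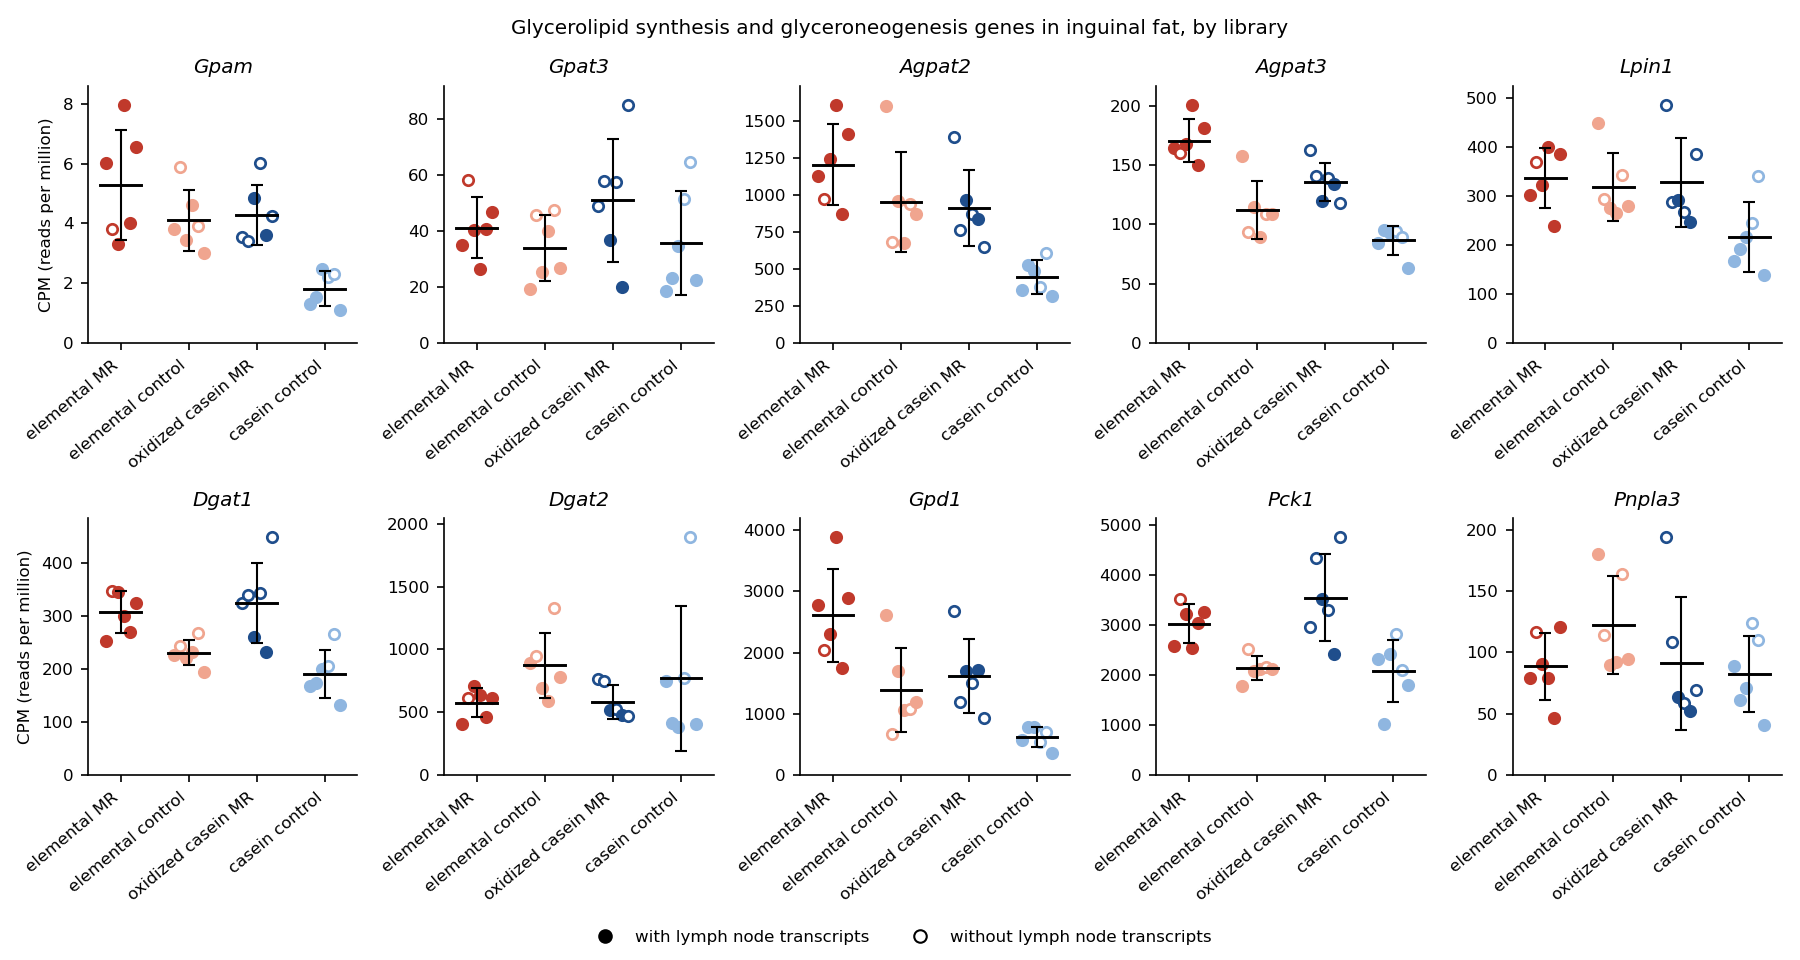
CPM of the 10 genes in each library (points), with the mean and SD of the 6 mice of a diet (black), from left to right elemental MR, elemental control, oxidized casein MR and casein control. Filled points are libraries with lymph node transcripts and open points are those without. Each vertical axis starts at 0 and has its own scale. The 6 oxidized casein MR libraries lie above all 6 casein controls for Gpam, Agpat2, Agpat3 and Gpd1.

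On casein, 6 of the 10 members rose in oxidized casein MR against casein control and none fell. These were Gpd1 and Pck1, which supply glycerol 3-phosphate, the acyltransferases Gpam, Agpat2 and Agpat3, and Dgat1, with changes between 1.57-fold and 2.60-fold. In the same comparison 3.82% of all 15176 genes passed, 3.35% higher and 0.461% lower, and the 579 genes behind the first share became 316 without casein control 6. The median log2 fold change of the 10 members was 0.71, beside -0.06 over all genes. Because the members were chosen with earlier results of these data known, their contrast with all genes is a description only. The ranges of MR and control libraries did not overlap for 4 members, beside 2.69% of all genes.

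Gpd1, the cytosolic glycerol-3-phosphate dehydrogenase, had the largest fold change. Its level ran from 937 to 2683 CPM in oxidized casein MR, with a median of 1601 CPM, and from 356 to 790 CPM in casein controls, with a median of 641 CPM. Every MR library was above every control. The log2 fold change was 1.38 (SE 0.29, edgeR adjusted p = 0.00875), or 2.60-fold. Pck1, the cytosolic phosphoenolpyruvate carboxykinase that commits carbon to glyceroneogenesis, ran from 2415 to 4756 CPM in oxidized casein MR (median 3409.5 CPM) and from 1034 to 2828 CPM in casein controls (median 2210.4 CPM). Of the MR libraries 5 of 6 were above the highest control, and the log2 fold change was 0.77 (SE 0.19, edgeR adjusted p = 0.0221). The call on Pck1 was lost without casein control 6, oxidized casein MR 2 or oxidized casein MR 6.

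The acyltransferases followed. Gpam ran from 3.4 to 6.02 CPM in oxidized casein MR (median 3.92 CPM) and from 1.12 to 2.47 CPM in casein controls (median 1.87 CPM), with a log2 fold change of 1.22 (SE 0.25, edgeR adjusted p = 0.00849). Agpat2, whose loss in people causes a congenital lack of body fat, ran from 651 to 1392 CPM in oxidized casein MR (median 853 CPM) and from 314 to 609 CPM in casein controls (median 430.2 CPM), a 2.06-fold rise (log2 fold change 1.04, SE 0.22, edgeR adjusted p = 0.00899). Agpat3, a second lysophosphatidate acyltransferase, ran from 118 to 163 CPM in oxidized casein MR (median 137 CPM) and from 63.1 to 94.9 CPM in casein controls (median 91.1 CPM). For all 3 genes every MR library was above every control. Agpat3 rose least, 1.57-fold (log2 fold change 0.65, SE 0.13), but had the smallest adjusted p of the members, 0.00619 by edgeR. Gpat3, a GPAT of the endoplasmic reticulum, ran from 20.0 to 85.1 CPM in oxidized casein MR (median 53.3 CPM) and from 18.5 to 64.8 CPM in casein controls (median 28.9 CPM). Its ranges overlapped almost wholly, and the log2 fold change of 0.51 (SE 0.33) did not pass the test (edgeR adjusted p = 0.472).

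Of the later steps, Dgat1 passed. It ran from 232 to 448 CPM in oxidized casein MR (median 332 CPM) and from 133 to 266 CPM in casein controls (median 187 CPM). Casein control 5, at 266 CPM, was the only control in the MR range, and 4 of 6 MR libraries were above all controls. The log2 fold change was 0.77 (SE 0.15, edgeR adjusted p = 0.00675). Lpin1, the phosphatidate phosphatase missing in mice with fatty liver dystrophy, had 246 to 485 CPM in oxidized casein MR (median 289.9 CPM) and 138 to 340 CPM in casein controls (median 203 CPM). Its log2 fold change of 0.60 (SE 0.20) did not pass (edgeR adjusted p = 0.104), whereas DESeq2 called it (log2 fold change 0.62, adjusted p = 0.0387). Dgat2, the other DGAT enzyme, and Pnpla3, a lipid droplet protein of the patatin-like family that is induced by feeding, did not pass either. Dgat2 had 467 to 767 CPM in oxidized casein MR (median 520.1 CPM) and 383 to 1891 CPM in casein controls (median 582 CPM), with a log2 fold change of -0.40 (SE 0.31, edgeR adjusted p = 0.553). Pnpla3 had 52.1 to 194 CPM in oxidized casein MR (median 66.8 CPM) and 40.9 to 124 CPM in casein controls (median 79.8 CPM), with a log2 fold change of 0.14 (SE 0.32, edgeR adjusted p = 0.867). The ranges of both overlapped widely, and the sign of Dgat2 turned on 1 library, as its log2 fold change was 0.10 without casein control 5, which had 1891 CPM.

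The lymph node share differed between these diets, and so the same comparison was made within libraries of each kind. The log2 fold changes with and without lymph node transcripts were 1.43 and 1.42 for Gpd1, 0.63 and 0.69 for Pck1, 1.36 and 0.98 for Gpam, 1.09 and 0.96 for Agpat2, 0.58 and 0.67 for Agpat3, and 0.53 and 0.69 for Dgat1. No member passed in either of these smaller sets, which held 2 MR and 4 control libraries and 4 MR and 2 control libraries. Of all genes, 5 of 15644 and 172 of 15820 passed there. For 10 members, a count of 0 is near these shares. Of 12 adipocyte markers, Adig, Slc2a4, Pnpla2 and Cfd rose with MR on casein, where 3.35% of all genes did. On casein 10 of the 12 had log2 fold changes above 0, with a median of 0.34. None passed on elemental amino acids, where 0.244% of all genes did and the median of the markers was 0.10. Of 10 macrophage markers 1, Cd68, fell on casein, where 0.461% of all genes did. On elemental amino acids all 10 macrophage and all 10 progenitor markers were below 0 with none passing, at medians of -0.56 and -0.76. Of 12 thermogenic markers, 5 rose with MR on casein, beside 3.35% of all genes. On elemental amino acids 2 rose, Kcnk3 and Gk, beside 0.217% of all genes. The summed level of the thermogenic markers was 1060 to 4576 CPM in oxidized casein MR and 324 to 1469 CPM in casein controls, and 3477 to 6654 CPM in elemental MR and 468 to 3828 CPM in elemental controls. The part of the macrophage, progenitor and thermogenic markers in the result was not tested. Fits with the mean adipocyte marker level as a covariate were made and are taken up below.

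**Figure D2:**
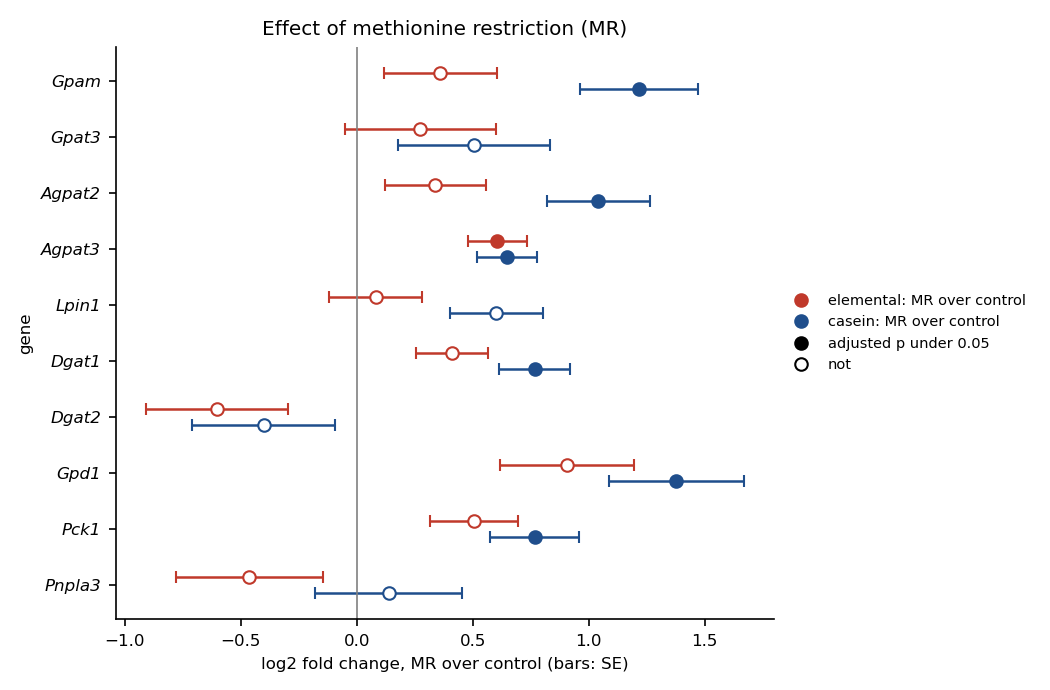
Log2 fold change of each gene, MR over control, on elemental amino acids (upper point of each pair) and on casein (lower point), with bars of 1 SE, from the edgeR fit of all 24 libraries. Filled points passed an adjusted p of 0.05 and open points did not. Agpat3 is filled in both comparisons, and Dgat2 lies left of 0 in both.

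On elemental amino acids, 1 member, Agpat3, rose in MR and none fell. In this comparison 0.244% of all genes passed in either direction, 0.217% higher and 0.0264% lower. The 37 genes behind this share became 7 without elemental MR 6 and 252 without elemental control 1. The median log2 fold change of the members was 0.35, beside -0.02 over all genes, and 8 of the 10 values were above 0. Agpat3 ran from 150.1 to 201 CPM in elemental MR (median 166 CPM) and from 89.6 to 157 CPM in elemental controls (median 109 CPM). Only elemental control 1, at 157 CPM, reached the MR range. The log2 fold change was 0.61 (SE 0.13, edgeR adjusted p = 0.0382), close to its 0.65 on casein, and the call was lost in 8 of the 24 fits that left out 1 library, namely without elemental MR 1, 4 or 6 and without elemental control 2, 3, 4, 5 or 6. No member passed without the 3 muscle-rich or albumin-rich libraries, within libraries with lymph node transcripts, or in a fit of the 2 elemental diets alone. In these fits 1 of 15218, 5 of 15644 and 23 of 14439 genes passed in all. For 10 members, a count of 0 is near these shares. The log2 fold change of Agpat3 was 0.56 in the libraries with lymph node transcripts and between 0.55 and 0.71 when 1 library was left out. It was 0.72 in the libraries without lymph node transcripts, which held 1 MR and 2 control libraries on elemental amino acids. That MR library, elemental MR 2, was muscle-rich, and so was elemental control 2.

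The glycerol 3-phosphate suppliers were also higher on elemental MR, without passing the test over all genes. Pck1 ran from 2535 to 3533 CPM in elemental MR (median 3131 CPM) and from 1775 to 2529 CPM in elemental controls (median 2122 CPM). It was the only member whose ranges did not overlap, beside 0.824% of all genes, with a log2 fold change of 0.51 (SE 0.19, edgeR adjusted p = 0.316). Gpd1 ran from 1745 to 3884 CPM in elemental MR (median 2545 CPM) and from 672 to 2623 CPM in elemental controls (median 1139 CPM). The ranges overlapped, and the log2 fold change of 0.91 (SE 0.29) had an edgeR adjusted p of 0.220. Without elemental control 1 the number of members called was 2, with Gpd1 beside Agpat3.

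Dgat1 had 253 to 348 CPM in elemental MR (median 313 CPM) and 195 to 267 CPM in elemental controls (median 229 CPM), with a log2 fold change of 0.41 (SE 0.15, edgeR adjusted p = 0.311). It passed once a lymph node term or an adipocyte marker term was in the model (edgeR adjusted p = 0.0347 and 0.00672). Dgat2 pointed the other way, with 405 to 713 CPM in elemental MR (median 615 CPM) and 586 to 1331 CPM in elemental controls (median 839.8 CPM), and a log2 fold change of -0.60 (SE 0.31, edgeR adjusted p = 0.527). Pnpla3 had 46.9 to 120.4 CPM in elemental MR (median 85.1 CPM) and 89.5 to 180.2 CPM in elemental controls (median 104 CPM), with a log2 fold change of -0.46 (SE 0.32, edgeR adjusted p = 0.684). The remaining members overlapped widely. Gpam had 3.31 to 7.96 CPM in elemental MR and 3.0 to 5.89 CPM in elemental controls, and Gpat3 26.5 to 58.4 CPM in elemental MR and 19.2 to 47.6 CPM in elemental controls. Agpat2 had 871 to 1607 CPM in elemental MR and 675 to 1599 CPM in elemental controls, and Lpin1 238 to 399.7 CPM in elemental MR and 265 to 448 CPM in elemental controls. The log2 fold changes of Gpam, Gpat3, Agpat2 and Lpin1 were 0.36, 0.27, 0.34 and 0.08, with edgeR adjusted p between 0.657 and 0.991.

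**Figure D3:**
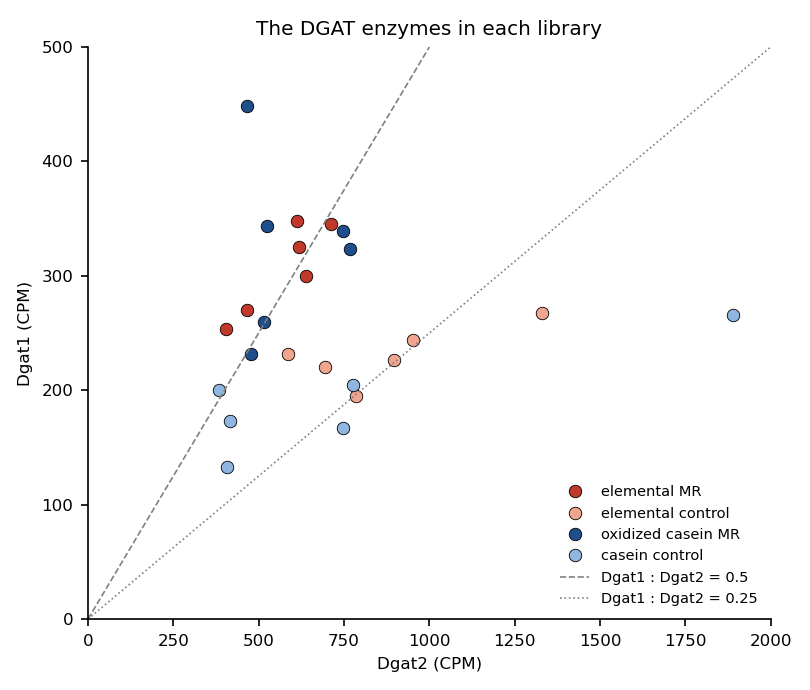
Dgat1 against Dgat2 in CPM, 1 point per library, coloured by diet. Dashed and dotted lines mark Dgat1 to Dgat2 ratios of 0.5 and 0.25. The 6 elemental MR libraries lie near or above the dashed line and the 6 elemental controls below it.

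The DGAT enzymes both make triglyceride from diacylglycerol, and Dgat1 is thought to handle mainly recycled fatty acids and Dgat2 newly made ones. The ratio of Dgat1 to Dgat2 within a library was 0.471 to 0.627 in elemental MR (median 0.547) and 0.201 to 0.396 in elemental controls (median 0.255). All 6 MR libraries were above all 6 controls. It was 0.423 to 0.960 in oxidized casein MR (median 0.495) and 0.140 to 0.522 in casein controls (median 0.296), where 2 of 6 MR libraries were above every control. This ratio was chosen after the values were seen and is given without a test. Full separation was not particular to it among the ratios computed. Pnpla3 to Dgat1 was 0.174 to 0.370 in elemental MR and 0.399 to 0.794 in elemental controls. The ratios of Gpat3 to Gpam and of Gpd1 to Pck1 overlapped between these diets.

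Averaged over both protein sources, the same 6 members rose with MR as on casein, in a comparison where 6.99% of all genes passed, 5.23% higher and 1.76% lower. The largest mean log2 fold change was that of Gpd1, 1.14 (SE 0.20, edgeR adjusted p = 0.00113). Gpam followed at 0.79, Agpat2 at 0.69, Pck1 at 0.64, Agpat3 at 0.63 and Dgat1 at 0.59, and the smallest adjusted p was that of Agpat3 (SE 0.09, edgeR adjusted p = 0.00018). Lpin1 at 0.34, Gpat3 at 0.39, Pnpla3 at -0.16 and Dgat2 at -0.50 did not pass (edgeR adjusted p between 0.171 and 0.754). This average uses the same libraries as the separate comparisons. For Gpam and Agpat2 the larger part came from casein, with log2 fold changes of 1.22 and 1.04. On elemental amino acids they were 0.36 and 0.34, and neither passed. With the mean adipocyte marker level as a covariate, the fall of Dgat2 passed as well, at a log2 fold change of -0.55 (edgeR adjusted p = 0.00537). Of the 12 markers in that covariate, Adig, Cfd and Pnpla2 rose and Lep fell in this same comparison. The covariate thus holds genes that changed with diet, which limits what the adjusted value can show.

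The difference between the MR effects, casein minus elemental, passed for no member and for 0% of all genes by edgeR, although 506 genes and 2 members had an unadjusted p under 0.05. DESeq2 called 2 genes and limma voom 0, none of them members. The 2 members were Gpam, with a difference of 0.86 on the log2 scale (SE 0.35), and Agpat2, with 0.70 (SE 0.31), both at an edgeR adjusted p of 0.910. All 10 differences were above 0, beside a median over all genes of 0.01, but those of Gpat3 and Dgat2 changed sign once lymph node content was in the model. The smallest was that of Agpat3, 0.04 (SE 0.18). A call on casein that was not made on elemental amino acids is therefore not shown to differ between the protein sources.

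**Figure D4:**
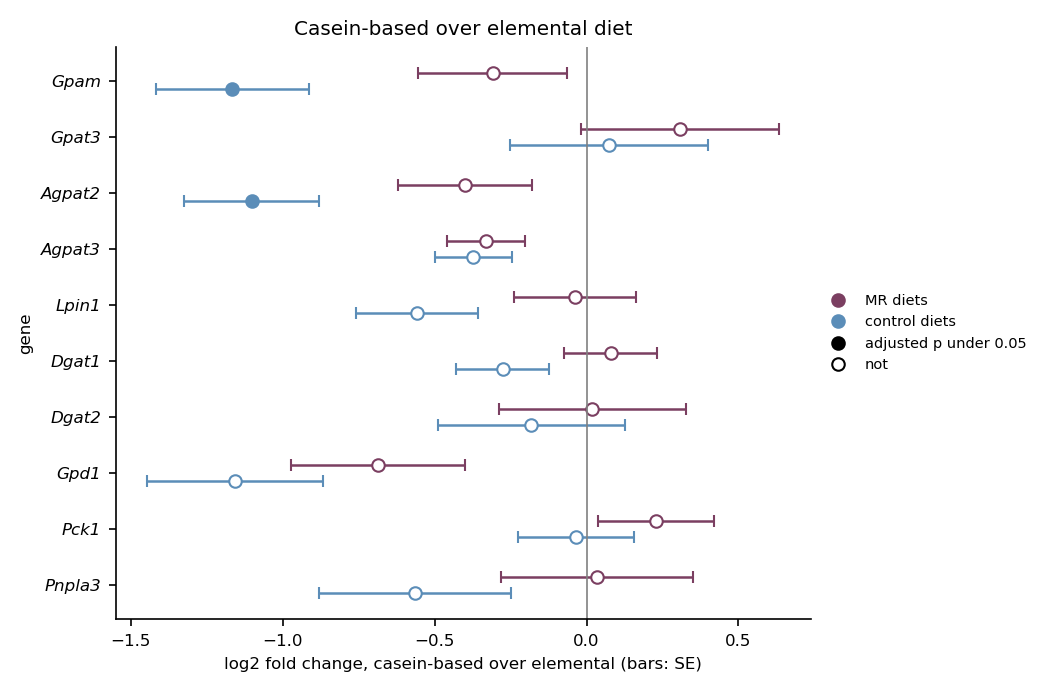
Log2 fold change of each gene, casein-based over elemental diet, between the MR diets (upper point of each pair) and between the control diets (lower point), with bars of 1 SE. Filled points passed an adjusted p of 0.05. Gpam and Agpat2 are the filled points, both between control diets and left of 0.

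The control diets differed too. The casein controls here are the same libraries as in the comparison of MR on casein, so the results of these comparisons are not independent. In casein controls, Gpam and Agpat2 were lower than in elemental controls, in a comparison where 0.659% of all genes passed, 0.0132% higher and 0.646% lower. Gpam had 1.12 to 2.47 CPM in casein controls and 3.0 to 5.89 CPM in elemental controls, a log2 fold change of -1.17 (SE 0.25, edgeR adjusted p = 0.0314). Agpat2 had 314 to 609 CPM in casein controls and 675 to 1599 CPM in elemental controls, a log2 fold change of -1.10 (SE 0.22, edgeR adjusted p = 0.0190). These were the 2 members whose ranges did not overlap, beside 0.929% of all genes. The median of Gpam was 3.92 CPM in oxidized casein MR and 3.86 CPM in elemental controls. That of Agpat2 was 853 CPM in oxidized casein MR and 903 CPM in elemental controls. Gpd1 had 356 to 790 CPM in casein controls and 672 to 2623 CPM in elemental controls, and its log2 fold change of -1.16 (SE 0.29) did not pass (edgeR adjusted p = 0.0640). Gpd1 passed by DESeq2 (adjusted p = 0.00477), with the lymph node term (edgeR adjusted p = 0.0386), with the adipocyte term (0.0409), in lymph node libraries alone (0.0379) and without the muscle-rich or albumin-rich libraries (0.0378). Pck1 had a difference of -0.03 (SE 0.19). The other 6 members had log2 fold changes between -0.56 and 0.07. No member was called in the 4 fits without elemental control 1, elemental control 3, casein control 1 or casein control 6, and none when the fit held the 2 control diets alone or the libraries without lymph node transcripts. The last 2 of these fits called 2 of 14628 and 0 of 15820 genes in all, so a count of 0 members is near their shares. When 1 library was left out, the log2 fold change stayed between -1.27 and -1.02 for Gpam and between -1.21 and -0.88 for Agpat2. The 100 genes called in all became 24 without elemental control 3 and 202 without elemental control 2. All 12 thermogenic markers had log2 fold changes below 0 here, with a median of -0.96, and Kcnk3 passed. Their part in the result was not tested. Limma voom called 1 member and a model with an adipocyte marker term called 4.

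Between the restricted diets no member passed, and 0% of all genes did, by edgeR. At an unadjusted p under 0.05 there were 1060 genes and 2 members, and DESeq2 called 12 genes and limma voom 0, none of them members. Agpat3 had 118 to 163 CPM in oxidized casein MR and 150.1 to 201 CPM in elemental MR, a log2 fold change of -0.33 (SE 0.13, edgeR adjusted p = 0.658). Gpd1 had 937 to 2683 CPM in oxidized casein MR and 1745 to 3884 CPM in elemental MR, a log2 fold change of -0.69 (SE 0.29, edgeR adjusted p = 0.666). Ranges overlapped for all members, where 0.422% of all genes did not overlap. The other 8 values lay between -0.40 for Agpat2 and 0.31 for Gpat3.

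The members did not vary as 1 block among mice of the same diet. Deviations of log2 CPM from the diet mean were correlated over the 24 libraries, which share the lymph node differences above and library depth, and the values are descriptions. Gpd1, Agpat2 and Agpat3 varied together, with a Pearson r of 0.91 between Gpd1 and Agpat2, 0.84 between Gpd1 and Agpat3 and 0.84 between Agpat2 and Agpat3. Gpat3 varied with Dgat1 (r = 0.82) and Lpin1 with Pnpla3 (r = 0.80). Pck1 and Gpd1, both suppliers of glycerol 3-phosphate, had r = -0.49.

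Lymph node and adipocyte content tracked these blocks unequally. The correlation with the mean adipocyte marker level was 0.88 for Dgat1, 0.81 for Gpat3, 0.77 for Dgat2, 0.66 for Pnpla3, 0.63 for Lpin1 and 0.54 for Pck1. It was 0.21 for Agpat3, 0.18 for Gpam, 0.08 for Agpat2 and -0.17 for Gpd1. With the mean B cell marker level, r was -0.79 for Gpat3, -0.74 for Dgat1, -0.67 for Dgat2, -0.62 for Pnpla3, -0.59 for Lpin1 and -0.47 for Pck1. It was -0.19 for Gpam, -0.07 for Agpat3, 0.01 for Agpat2 and 0.26 for Gpd1.

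**Figure D5:**
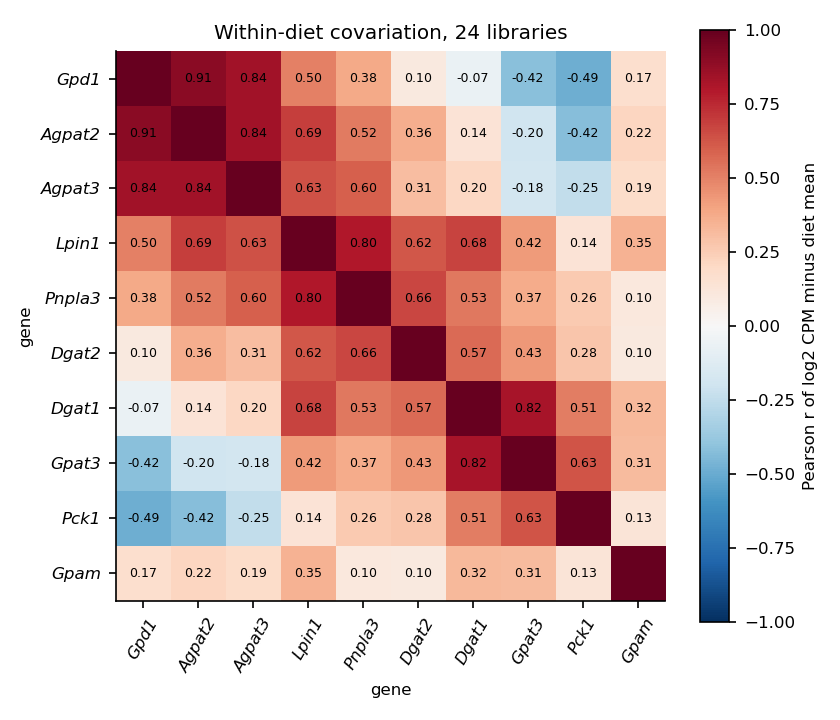
Pearson r between the 10 genes of log2 CPM minus the diet mean over 24 libraries, on a scale from -1 (blue) to 1 (red), with each value printed. Gpd1, Agpat2 and Agpat3 form a block at the upper left, with r from 0.84 to 0.91.

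The genes most like each member in this measure, among 8804 genes with a mean log2 CPM of at least 3, were different for the blocks. For Gpd1 they were Pfkl (r = 0.97), the liver-type phosphofructokinase of glycolysis, Suclg1, a succinyl-CoA ligase subunit of the TCA cycle, and Letm1, a protein of the inner mitochondrial membrane. For Agpat2 they were Rmdn3 (r = 0.96), Txn2, the mitochondrial thioredoxin, and Dlst, a subunit of 2-oxoglutarate dehydrogenase. For Agpat3 they were Atp5b (r = 0.95) and Atp5k, subunits of ATP synthase, and Mdh2, the mitochondrial malate dehydrogenase. The nearest to Dgat1 were Tmem120a (r = 0.92), Acsl1, an acyl-CoA synthetase, and Arxes1. Lpin1 was nearest to Mfn2 (r = 0.90), a mitochondrial fusion protein, Slc2a4, the insulin-responsive glucose transporter, and Derl1. Gpat3 was nearest to Klhl2 (r = 0.91), Kank1 and Slc7a10. Pck1 was nearest to Lgals12 (r = 0.90), Net1 and Tmcc3, and Dgat2 to Grtp1 (r = 0.97), Trp53inp2 and Ephb2. Pnpla3 was nearest to Tmem184b (r = 0.91), Tlcd1 and Idh1, the cytosolic isocitrate dehydrogenase. Gpam, with few reads, had a highest r of 0.64, with L3hypdh, followed by Fmo1 and Anapc1.

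Of 14 other genes on the routes to and from glycerol 3-phosphate, 1 rose on elemental amino acids, where 0.217% of all genes did, and 5 on casein, where 3.35% did. None fell, and 13 and 9 did not pass. The 1 called in both was Gk, glycerol kinase, which makes glycerol 3-phosphate directly from glycerol, with 74.0 ± 17.9 CPM in elemental MR and 19.5 ± 7.82 CPM in elemental controls, and 44.7 ± 19.1 CPM in oxidized casein MR and 13.9 ± 8.82 CPM in casein controls (SD, n = 6 each). Gk is also among the thermogenic markers counted above. Its log2 fold changes were 1.92 on elemental amino acids (edgeR adjusted p = 0.0211) and 1.68 on casein (edgeR adjusted p = 0.00999). The others on casein were Aldoa, a glycolytic aldolase (log2 fold change 0.99), Gapdh (0.97), Pcx, the pyruvate carboxylase that feeds glyceroneogenesis (0.85), and Mdh2 (0.62), with edgeR adjusted p between 0.00610 and 0.0125. Gapdh has many near-identical pseudogene copies, so its count is uncertain. Aldoa, Gapdh and Pcx were also the 3 of the 14 that fell in casein controls against elemental controls, with log2 fold changes of -1.08, -1.14 and -0.80. Of all genes, 0.646% fell there.

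Of 10 other acyltransferases tested none passed with MR on either source, beside 0.244% of all genes on elemental amino acids and 3.82% on casein. The smallest p belonged to Gpat4 on elemental amino acids (log2 fold change 0.43, edgeR adjusted p = 0.137) and to Agpat1 on casein (0.45, edgeR adjusted p = 0.0578). Both passed when MR was averaged over the sources, at 0.37 and 0.38, beside 6.99% of all genes. Gpat4 had 206 ± 25.5 CPM in oxidized casein MR and 165 ± 24.1 CPM in casein controls (SD, n = 6 each). On the same scale of 3′ counts, Gpam had 4.27 ± 1.01 CPM in oxidized casein MR and 1.82 ± 0.570 CPM in casein controls. As stated above, levels compared between genes are uncertain on this scale. None of 7 genes of the phosphatidate phosphatase step or its control passed on elemental amino acids, on casein or in the mean, beside 0.244%, 3.82% and 6.99% of all genes. For 7 genes, a count of 0 is near these shares. The smallest p belonged to Lpin3, with a mean log2 fold change of -0.52 (edgeR adjusted p = 0.240). Of 10 genes of acyl-CoA supply and droplet assembly 1 rose on casein, beside 3.35% of all genes, and 0 on elemental amino acids, beside 0.217%. It was Acsl1, with 1466 ± 241 CPM in oxidized casein MR and 966 ± 156 CPM in casein controls (SD, n = 6 each; log2 fold change 0.60, edgeR adjusted p = 0.00780).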

How the data were processed

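RNA of flash-frozen IWAT was read as 50 bp QuantSeq 3′ reads, per the labels' protocols. The authors deposited raw gene counts for 16821 genes and a normalized signal table, in which the counts of a library are divided by 1 constant, to a relative difference of at most 9.8e-15. GRCm38 and mm10, along with DESeq2 1.18.1 and R 3.4.3, appear in the submitters' processing notes. The aligner and counter are not given in the sources used.

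Deposited counts were fitted with edgeR 4.0.16 (R 4.3.3), using filterByExpr (15176 genes kept, 1645 removed), TMM scaling and 1 mean for each diet over the 24 libraries, and tested with 2-sided quasi-likelihood F tests. Benjamini-Hochberg adjustment ran over the 15176 genes, with a threshold of 0.05. An SE is the log2 fold change divided by the root of F. The code was tested on simulated data. By the mouse numbers in the labels, libraries are separate mice, numbered here in series order. Lymph node transcripts were called present where the B cell markers averaged above 4 log2 CPM (prior count 2). DESeq2 1.42.0, limma 3.58.1 (voom), other scaling and filtering, covariates and subsets served as alternatives.

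Members and gene lists were chosen with earlier results of these data known. All members are named, and of each list the called genes, at most 4 in order of p, or else the gene of smallest p. The labels name no molecular identifiers, so the spread between mice gives the precision.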

Additional observations from a re-analysis of the deposited data

Results flagged for a closer look

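In each of the 40 sets of 6 libraries (10 genes on 4 diets), the highest and the lowest library were compared with their nearest neighbour, and a gap of more than 0.625 of the whole range was marked. Chance marks about 1 in 20 such groups. Elemental control 1 stood above the other elemental controls for Agpat2, at 1599 CPM with the next at 957 CPM, and for Agpat3, at 157.4 CPM with the next at 114.5 CPM. Casein control 6 was the lowest casein control for Agpat3, at 63.1 CPM with the next at 84.7 CPM. Casein control 5 was the highest casein control for Dgat2, at 1891 CPM with the next at 775 CPM.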

How the results depend on the processing

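With all 24 libraries, edgeR called 1 member for MR on elemental amino acids, 6 for MR on casein, 6 for their mean, 0 for their difference, 2 for casein control against elemental control and 0 between the MR diets. Leaving out 1 library at a time gave 0 to 2, 5 to 7, 6 to 7, 0, 0 to 3 and 0. For MR on elemental amino acids, a lymph node or an adipocyte term gave 2 members. Libraries with lymph node transcripts, those without, leaving out the 3 muscle-rich or albumin-rich libraries, and fitting the 2 diets alone each gave 0. For MR on casein, DESeq2 gave 7 and both lymph node subsets 0, and for the mean the libraries without lymph node transcripts gave 1. For the control diets, voom gave 1, DESeq2 3, the adipocyte term 4, and the libraries without lymph node transcripts and the 2 diets alone 0. The subsets hold fewer samples, and the libraries without lymph node transcripts hold 1 elemental MR library. Over all genes the calls for MR on elemental amino acids, MR on casein and the control diets were 37, 579 and 100, against 213, 915 and 411 by DESeq2, 166, 1120 and 313 with the lymph node term, 449, 1244 and 372 with the adipocyte term, 5, 5 and 177 in libraries with lymph node transcripts, 0, 172 and 0 in those without, 1, 591 and 92 without the muscle-rich or albumin-rich ones, and 23, 339 and 2 with the 2 diets alone. The mean MR effect had 1061, against 1941 and 2277 with the terms, 344 and 320 in the subsets. Leaving out 1 library gave 7 to 252, 316 to 825, 24 to 202 and, for the mean, 862 to 1301. No scaling moved the median log2 fold change of all genes by over 0.1. No paired analysis was possible because each mouse has its own number and no label links mice across diets.

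The following log2 fold changes changed sign, and the cause was not tested. Between the MR diets, Lpin1 was 0.0040 with no filter, 0.0468 without the muscle-rich or albumin-rich libraries and 0.0032 with the 2 diets alone. With the lymph node term, the adipocyte term, lymph node libraries only and the rest only, in that order, Pnpla3 was -0.33, -0.29, -0.54 and -0.13 between the MR diets (-0.0682 by voom) and -0.0737, -0.15, -0.19 and -0.0552 for MR on casein, and the difference between MR effects for Gpat3 was -0.24, -0.19, -0.26 and -0.23. With both terms and in the libraries without lymph node transcripts, that difference for Dgat2 was -0.0664, -0.0173 and -0.19. Between the MR diets, the first 3 of those settings gave -0.25, -0.15 and -0.43 for Gpat3, -0.13, -0.13 and -0.29 for Dgat1 and -0.35, -0.30 and -0.20 for Dgat2. Gpat3 between control diets was -0.0033 with the lymph node term and -0.16 in lymph node libraries, where Dgat2 for MR on casein was 0.0068. Libraries without lymph node transcripts gave -0.31 for Gpam with MR on elemental amino acids, 0.14 for Gpam between MR diets, -0.0566 for the Agpat3 difference, and 0.21 for Dgat2 and 0.05 for Pck1 between control diets. Without the muscle-rich or albumin-rich libraries, Lpin1 was -0.0433 for MR on elemental amino acids and Pck1 0.0479 between control diets. Leaving out 1 library gave ranges across 0 of -0.0577 to 0.10 for the Agpat3 difference, -0.54 to 0.10 for Dgat2 and -0.23 to 0.29 for Pnpla3 with MR on casein, -0.18 to 0.21 for Gpat3 and -0.14 to 0.10 for Pck1 between control diets, and, between MR diets, -0.0019 to 0.18 for Dgat1, -0.0491 to 0.13 for Dgat2, -0.16 to 0.0565 for Lpin1 and -0.31 to 0.18 for Pnpla3.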

Other observations

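Genes that draw on the same intermediates, or that release fatty acids again, were read in the same comparisons. Of 8 genes of triglyceride hydrolysis tested, 3 rose with MR on casein, where 3.35% of all genes did, and 0 on elemental amino acids, where 0.217% did, and none fell. Abhd6, a monoacylglycerol lipase, averaged 57.7 ± 7.67 CPM in oxidized casein MR and 31.4 ± 5.69 CPM in casein controls (SD, n = 6 each; log2 fold change 0.88, edgeR adjusted p = 0.00112). Pnpla2, the adipose triglyceride lipase, averaged 1773 ± 314 CPM in oxidized casein MR and 1236 ± 264 CPM in casein controls (SD, n = 6 each; log2 fold change 0.52, edgeR adjusted p = 0.0467). Abhd5, its coactivator, had a log2 fold change of 0.60 (edgeR adjusted p = 0.0365).

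Of 20 genes of the phospholipid branch, 1 rose on casein, a share near the 3.35% of all genes that rose there. It was Crls1, the cardiolipin synthase of mitochondria, with 61.2 ± 7.63 CPM in oxidized casein MR and 31.2 ± 6.86 CPM in casein controls (SD, n = 6 each; log2 fold change 0.97, edgeR adjusted p = 0.00127). When MR was averaged over the protein sources, Ptdss2, Chkb and Pcyt2 passed as well, with log2 fold changes of 0.43, 0.51 and 0.50, beside 5.23% of all genes. Of 13 transcriptional regulators of lipid genes, 2 rose on casein, where 3.35% of all genes did. They were Insig1, a sterol-sensing brake on SREBP processing, and Mlxipl, the carbohydrate response factor ChREBP. Their log2 fold changes were 1.19 and 1.10 (edgeR adjusted p = 0.00446 and 0.0110). Insig1 had 113 ± 32.2 CPM in oxidized casein MR and 49.3 ± 13.8 CPM in casein controls, and 109 ± 20.9 CPM in elemental MR and 138 ± 51.3 CPM in elemental controls (SD, n = 6 each). It fell in casein controls against elemental controls (log2 fold change -1.48, edgeR adjusted p = 0.00247), and the difference between its MR effects, 1.53 on the log2 scale, did not pass over all genes (edgeR adjusted p = 0.703).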
